A study of Mus musculus with 30 samples.

Results

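The genes described here are 10 feedback inhibitors and target factors of the ERK pathway, namely the dual-specificity phosphatases *Dusp4*, *Dusp5* and *Dusp6*, the Sprouty genes *Spry1*, *Spry2* and *Spry4*, the Spred genes *Spred1* and *Spred2*, and the ETS transcription factors *Etv4* and *Etv5*. They were taken by a list of symbols from the 54838 genes of a kidney count table and the 55487 genes of a gastrocnemius count table, and all 10 passed the filter on low counts in both tissues. RNA-seq was performed on 30 libraries of male wild-type C57BL/6J mice kept at thermoneutrality from 6 weeks of age, with 5 libraries per group and tissue. The control group (CD) and the western diet group (WD) received water. The WD+CHP group was given the western diet together with cyclo(His-Pro) (CHP), a ring-shaped dipeptide made of a histidine and a proline. CHP was dosed by oral gavage at 20 mg/kg on 3 days of each week, between Week 7 and Week 24. The diets also began at 7 weeks of age, and all mice were killed for tissue at 24 weeks of age, after a short fast. Every group shared the housing, the sex and the strain, so a diet effect was measured only at thermoneutrality and only in males. According to the methods, RNA was taken from each mouse. Whether a kidney and a muscle library came from the same mouse is not given in the sources used here.

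ERK is the last kinase of a cascade that runs from growth factor receptors through RAS, RAF and MEK. Active ERK induces its own brakes, whose transcripts are therefore widely read as a record of pathway output. DUSP phosphatases remove the activating phosphates from ERK, Sprouty and SPRED proteins act higher up at the level of RAS and RAF, and ETV4 and ETV5 are ETS factors whose genes are switched on by FGF and other ERK-coupled signals. In kidney the axis from *Ret* to *Etv4* and *Etv5* is known from branching of the ureteric bud, and *Spry1* is the brake on that axis. In skeletal muscle *Spry1* is known for the quiescence of satellite cells. The comparison of WD with CD asked whether the diet moved these transcripts, and WD+CHP vs. WD whether CHP did. The study examined ERK signalling as an early response to CHP. It also reported lower ERK signalling outside liver, from the kidney and muscle transcriptomes. In liver it found phosphorylated ERK lower hours after a dose, back at baseline a day later, and unchanged after the chronic diet. The libraries here come from the end of that diet and do not measure the early response. Single genes were tested here, and no gene set.

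Liver is written in the labels as the frozen tissue that was extracted, whereas the methods name kidney and gastrocnemius. Proximal tubule markers passed the filter for 12 of 12 genes in kidney but 1 in muscle, and fast fibre markers for 4 of 12 genes in kidney but 12 in muscle. Summed over 10 hepatocyte genes, the level was 179 to 925 CPM (read counts scaled to a common library size by TMM) in kidney and 23.3 to 128 CPM in gastrocnemius. The highest kidney value was that of WD replicate 5, and CD replicate 1 and WD replicate 3 were the highest in gastrocnemius. Sequencing depth ranged from 37189192 to 38211422 counts in kidney and from 50319024 to 53282969 in gastrocnemius.

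Promoter windows are shown for the genes that passed the test in a tissue below and have an entry in the RefSeq table, *Spred2*, *Etv5* and *Spry1* (RefSeq, GRCm38.p6, 250 bases before to 50 bases after a transcription start, 5′ to 3′ on the gene's strand). Capitals mark matches on either strand to GGAAGT or CCGGAA, which contain the core bound by ETS factors, to TGACGTCA, the full CRE, or to TGANTCA, an AP-1 motif. GGAAGT and CCGGAA can overlap by 4 bases.
Spred2, chr11:19924192-19924491, plus strand: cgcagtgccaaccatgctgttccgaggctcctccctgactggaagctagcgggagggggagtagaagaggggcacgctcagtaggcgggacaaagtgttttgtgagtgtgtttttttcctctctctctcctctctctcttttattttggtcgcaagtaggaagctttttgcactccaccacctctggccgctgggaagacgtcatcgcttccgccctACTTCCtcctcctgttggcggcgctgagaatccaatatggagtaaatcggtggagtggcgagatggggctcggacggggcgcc
Etv5, chr16:22439521-22439820, minus strand: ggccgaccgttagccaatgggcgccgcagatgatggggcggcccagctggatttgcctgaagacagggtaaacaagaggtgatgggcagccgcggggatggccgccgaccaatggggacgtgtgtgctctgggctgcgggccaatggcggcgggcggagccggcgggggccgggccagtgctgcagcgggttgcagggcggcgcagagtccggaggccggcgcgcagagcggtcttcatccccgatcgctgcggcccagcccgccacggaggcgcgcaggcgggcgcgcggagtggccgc
Spry1, chr3:37639697-37639996, plus strand: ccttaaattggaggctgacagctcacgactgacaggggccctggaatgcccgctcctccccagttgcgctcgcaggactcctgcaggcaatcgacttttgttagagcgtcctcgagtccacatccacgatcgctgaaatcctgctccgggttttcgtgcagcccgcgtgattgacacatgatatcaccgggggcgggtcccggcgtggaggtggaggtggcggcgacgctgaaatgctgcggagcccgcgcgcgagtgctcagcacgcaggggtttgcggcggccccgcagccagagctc
The *Spred2* window held 1 match, GGAAGT on the opposite strand, 33 bases before the start. No match to these letters stood in the *Etv5* or the *Spry1* window. GGAAGT is found in 23.8% of all 32851 windows of this length, CCGGAA in 14.9%, TGACGTCA in 1.79% and TGANTCA in 7.81%. The RefSeq transcription start lies 67 bases from the GENCODE start of *Spred2*, 149 bases from that of *Etv5* and 0 bases from that of *Spry1*. *Etv5* has 2 windows in the table, and the one nearest to the GENCODE start is shown. GC content was 57.0% in *Spred2*, 74.0% in *Etv5* and 64.3% in *Spry1*, with a median of 52.7% over all windows. *Dusp5*, *Dusp6*, *Spry2* and *Spred1* also have a window. *Dusp4*, *Spry4* and *Etv4* are named only.

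Levels were compared between genes per kilobase of exon (RPKM) in the CD libraries. In kidney *Dusp6* was the highest member, at 18.2 ± 1.58 RPKM (SD, n = 5), above 87.7% of the genes tested. *Spred2* followed at 12.4 ± 1.04 RPKM, with no overlap with *Dusp6* or with the next gene. *Etv5* (7.62 ± 0.375 RPKM), *Spry1* (7.10 ± 0.204), *Spred1* (6.44 ± 0.515), *Dusp4* (5.75 ± 0.396) and *Spry2* (5.57 ± 0.533) formed a run in which each gene overlapped the one above it. *Spry4* stood lower at 2.59 ± 0.315 RPKM, *Dusp5* at 0.909 ± 0.0866 and *Etv4* at 0.403 ± 0.116, each without overlap with the gene above. Thus *Dusp6* and *Spred2* led in kidney, and *Etv5* stood far above *Etv4*.

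The order differed in gastrocnemius. *Spry1* was the highest member at 7.88 ± 0.252 RPKM (SD, n = 5), above 79.6% of the genes tested, and *Spry2* was the next at 5.17 ± 0.563. *Dusp6* (3.85 ± 0.617 RPKM) and *Etv5* (3.54 ± 0.573) overlapped each other, and *Spred2* followed at 2.16 ± 0.116. *Spred1* (1.26 ± 0.148 RPKM), *Spry4* (1.03 ± 0.189) and *Dusp4* (0.892 ± 0.0843) overlapped in turn, and *Etv4* (0.483 ± 0.0896) and *Dusp5* (0.197 ± 0.0487) were the lowest. Both tissues shared the pair at the bottom, *Etv4* and *Dusp5*, in opposite order. For the same gene, the ratio of the kidney to the gastrocnemius mean CPM in CD was 6.45 for *Dusp4*, 5.75 for *Spred2*, 5.10 for *Spred1*, 4.72 for *Dusp6*, 4.61 for *Dusp5*, 2.51 for *Spry4* and 2.15 for *Etv5*. It was 1.08 for *Spry2*, 0.901 for *Spry1* and 0.834 for *Etv4*. The 2 tables were scaled separately, so these ratios carry no test.

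**Figure D1:**
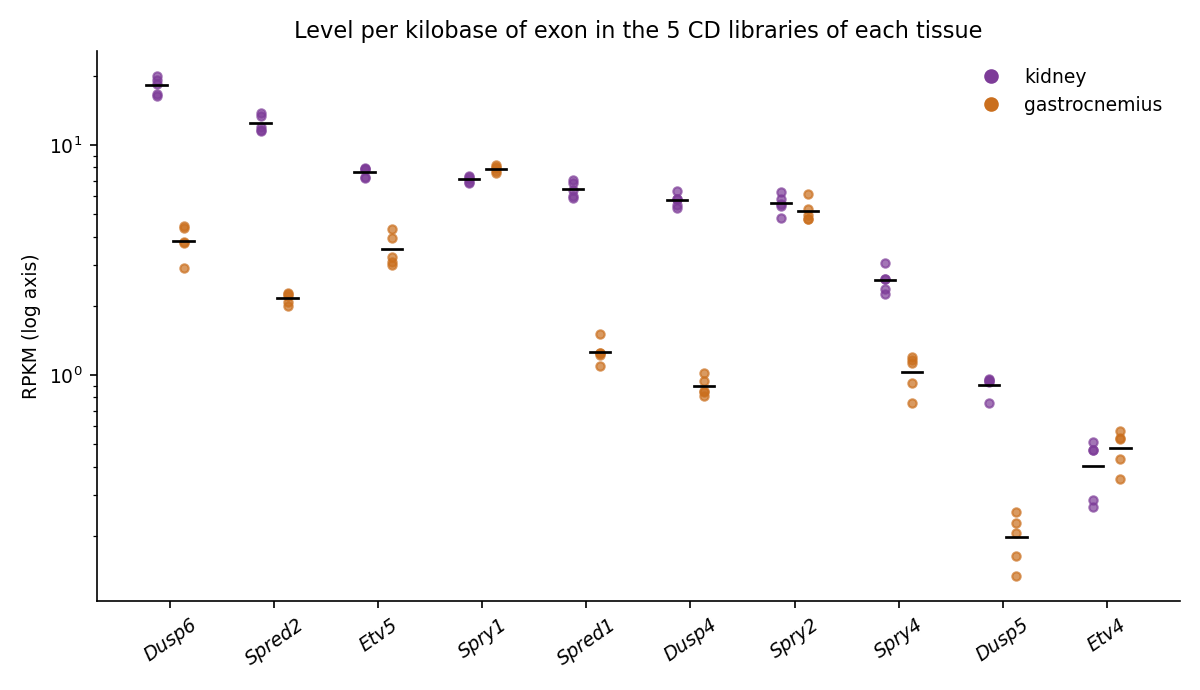
RPKM of each gene in the 5 CD libraries of kidney and of gastrocnemius on a log axis; points are libraries and bars are means. *Dusp6* and *Spred2* lead in kidney, at means of 18.2 and 12.4, and *Spry1* leads in gastrocnemius at 7.88.

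In kidney, *Spred2* and *Etv5* were lower in WD than in CD, by about the same share, and the other 8 members did not pass the test. Thus 2 of 10 members were called, both lower, against 9.65% of all 17120 genes called in either direction, 5.03% lower and 4.62% higher (edgeR, adjusted p under 0.05). The count of 2 is close to what this background gives for 10 genes, and nothing is read from it about the group. The members' median log2 fold change was -0.07, and that of all genes was 0.00.

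*Spred2* (ENSMUSG00000045671; GRCm38 chr11:19924375-20024026, plus strand) encodes an inhibitor of RAS-RAF signalling that works at the membrane with neurofibromin. Its kidney level in the CD libraries was 63.5, 55.2, 53.8, 53.1 and 61.8 CPM. The WD libraries were at 48.0, 48.0, 43.4, 46.9 and 41.3 CPM, and the WD+CHP libraries at 47.8, 51.2, 47.5, 43.5 and 46.9. Every library on the western diet, with or without CHP, was below every CD library. *Spred2* fell by 20.8% in WD vs. CD (log2 fold change -0.34, standard error 0.060, 95% interval -0.46 to -0.21, edgeR adjusted p = 0.00259, n = 5 per group). These levels rest on 1567 to 2428 counts per library. Leaving out single libraries kept the call in 10 of 10 fits, with an edgeR adjusted p of at most 0.00935. With CHP the level was 4.10% higher than in WD (log2 fold change 0.06, 95% interval -0.07 to 0.19, edgeR adjusted p = 0.768).

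*Etv5* (ENSMUSG00000013089; chr16:22381309-22439719, minus strand), the ETS factor that is the main one of the pair in adult kidney by the RPKM values above, was at 32.5, 32.4, 29.4, 29.8 and 32.2 CPM in CD. The WD libraries were at 25.0, 23.9, 22.3, 31.5 and 23.4 CPM, and the WD+CHP libraries at 24.5, 24.4, 23.3, 21.9 and 25.4. Of the WD libraries, 4 lay below all CD libraries and replicate 4 lay among them. All 5 WD+CHP libraries lay below all CD libraries. *Etv5* fell by 19.5% in WD vs. CD (log2 fold change -0.31, standard error 0.075, 95% interval -0.47 to -0.15, edgeR adjusted p = 0.0156, n = 5 per group). The call held in 10 of 10 fits without 1 library, and without WD replicate 4 the difference was -0.40 (edgeR adjusted p = 0.000553). WD+CHP was 5.20% lower than WD (log2 fold change -0.08, 95% interval -0.24 to 0.08, edgeR adjusted p = 0.752).

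The other kidney members differed from CD by -15.5% (*Dusp5*) to 28.1% (*Etv4*) in WD, none past the test. *Dusp6*, the cytoplasmic phosphatase specific for ERK and the most abundant member, was at 62.7, 57.7, 52.5, 60.4 and 51.3 CPM in CD and at 56.7, 52.8, 60.9, 53.8 and 57.5 in WD. The WD range lay inside the CD range (log2 fold change -0.01, 95% interval -0.20 to 0.17, edgeR adjusted p = 0.943). *Spred1*, the paralogue of *Spred2*, was at 43.7 ± 3.50 CPM in CD and 44.4 ± 2.11 in WD (SD, n = 5 each). Its log2 fold change of 0.02 had a 95% interval of -0.10 to 0.15, which does not reach the -0.34 of *Spred2*. The difference between the 2 genes was not tested. *Dusp4*, a nuclear phosphatase, was 15.8 ± 1.08 and 14.4 ± 0.797 CPM, with 3 WD libraries below all CD libraries and an edgeR adjusted p of 0.215. *Dusp5*, the nuclear phosphatase specific for ERK, was at 2.25 ± 0.214 and 1.90 ± 0.303 CPM, from 58 to 100 counts per library over the 3 groups (edgeR adjusted p = 0.318).

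The Sprouty genes, whose products act between receptor and RAF, did not pass in kidney. *Spry1* was at 20.6 ± 0.593 CPM in CD and 19.8 ± 2.49 in WD, *Spry2* at 11.6 ± 1.11 and 10.9 ± 0.974, and *Spry4* at 12.3 ± 1.498 and 12.2 ± 1.09 (SD, n = 5 each). Their groups overlapped, and their log2 fold changes were -0.06, -0.09 and -0.01 (edgeR adjusted p = 0.773, 0.529 and 0.961). *Etv4* had 31 to 77 counts per library and the widest error of the group, at 1.25 ± 0.361 CPM in CD and 1.60 ± 0.306 in WD (log2 fold change 0.36, 95% interval -0.16 to 0.87, edgeR adjusted p = 0.390). Its biological coefficient of variation of 24.2% stood above that of 94.1% of kidney genes, whereas those of *Dusp4*, *Spred1* and *Spred2* were 6.82%, 6.97% and 7.10%. The standard error of the *Etv4* difference was 0.24, against 0.060 for *Spred2*, so that a difference as small as that of *Spred2* was not detectable for *Etv4* with this error.

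**Figure D2:**
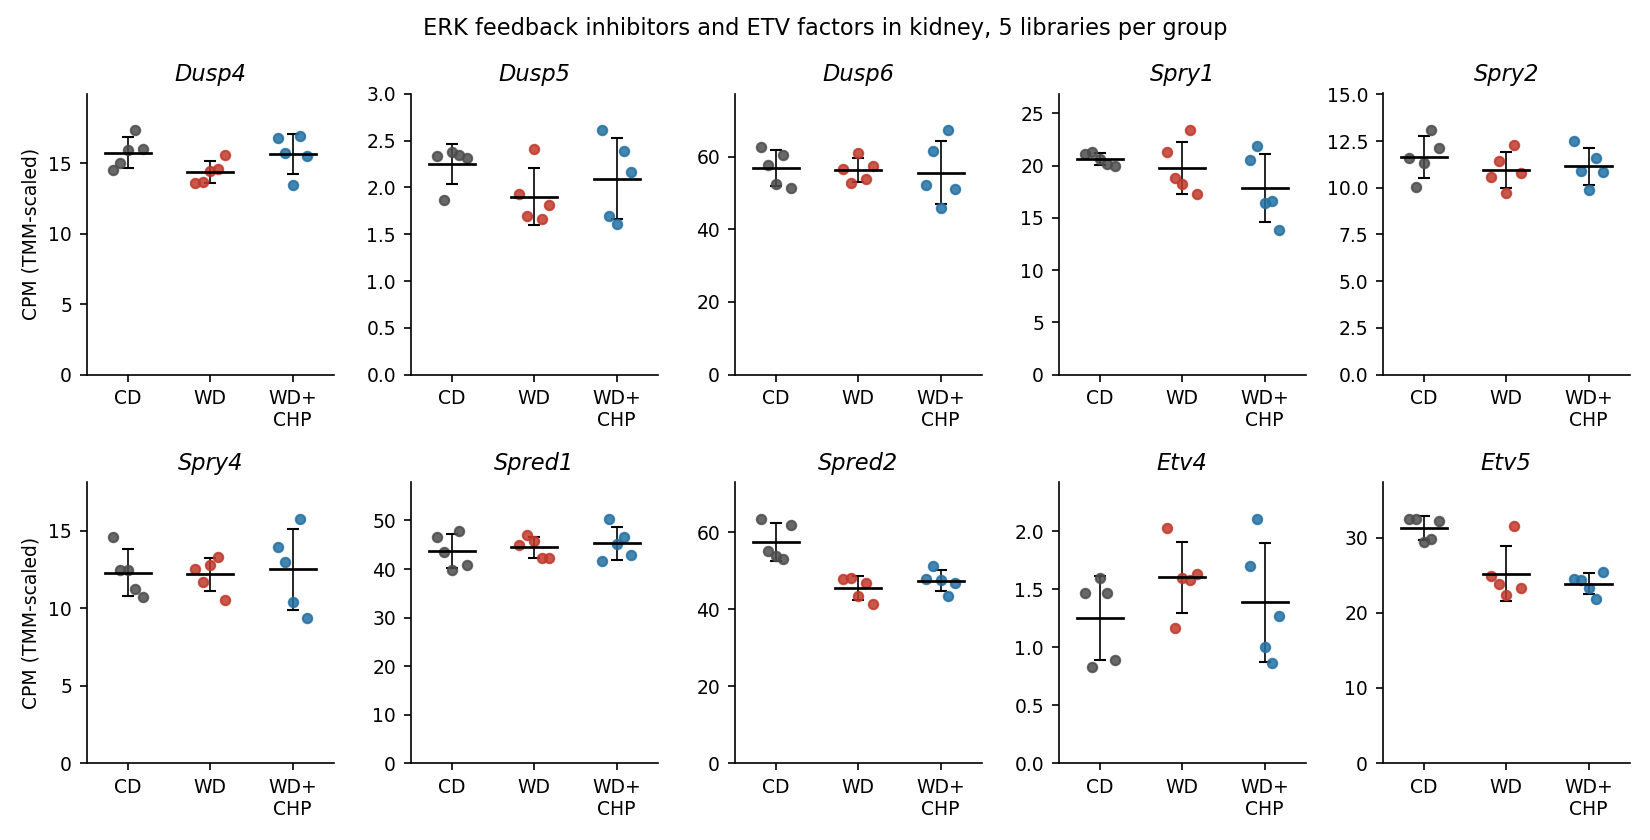
Kidney CPM (TMM-scaled) of each gene by group; points are the 5 libraries in replicate order, bars are means and error bars SD, and each axis starts at 0. *Spred2* lies at 41.3 to 51.2 in the 10 western diet libraries and at 53.1 to 63.5 in CD, and 1 WD library of *Etv5*, at 31.5, stands among the CD libraries.

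No member passed the test for CHP in kidney. Of 10 members, 0 were called in WD+CHP vs. WD, against 0.105% of all genes, 0 had an unadjusted p under 0.05 in edgeR, where 11.4% of all genes had one, and DESeq2 and limma-voom also called 0. The 2 comparisons share the WD libraries, so their values are not independent. The largest difference was that of *Etv4* (-0.20, standard error 0.24), and the next was that of *Spry1*, from 19.8 ± 2.49 to 17.9 ± 3.25 CPM (SD, n = 5 each). Of the WD+CHP libraries, 3 were below all WD libraries for *Spry1*, at 13.9, 16.4 and 16.6 CPM, and the other 2 overlapped the WD range (log2 fold change -0.15, 95% interval -0.37 to 0.07, edgeR adjusted p = 0.622). *Dusp6* spread more widely under WD+CHP, at 52.1, 61.7, 45.8, 67.3 and 51.0 CPM, than under WD, and the spread itself was not tested. *Dusp4* was 9.09% higher under WD+CHP than under WD (95% interval -0.781% to 19.9%, edgeR adjusted p = 0.490). The 95% intervals of *Dusp6*, *Spry2*, *Spred1*, *Spred2* and *Etv5* lay within -0.24 and 0.19 on the log2 scale, and the widest of the others was that of *Etv4*, at -0.71 to 0.31.

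Set against CD, 2 of 10 members, *Spred2* and *Etv5*, had WD+CHP kidney libraries that did not overlap the CD libraries, where 8.34% of all kidney genes did not. For WD against CD it was 1 of 10, *Spred2*, where 8.70% of all kidney genes did not overlap.

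Markers of several cell types were summed in kidney. The sum over 10 adipocyte genes was 658 to 1173 CPM in CD, 342 to 480 in WD and 322 to 905 in WD+CHP, and 2 of the 8 tested were called lower in WD vs. CD (median log2 fold change -0.56). The sum over 12 proximal tubule genes was 34071.5 to 37661 CPM in CD, 30571 to 34038 in WD and 33476 to 38226 in WD+CHP, with 2 called higher and 2 lower. In WD+CHP both sums overlapped those of CD. The sum over 12 fast fibre genes, of which 4 passed the filter in kidney and 2 were at 0, was 18.0 to 19.7 CPM in CD, 22.7 to 29.4 in WD and 22.4 to 28.9 in WD+CHP, so that both western diet groups lay above CD without overlap, as *Spred2* lay below it. Of the 4 fast fibre genes 1 was called higher in WD vs. CD, *Pvalb* (log2 fold change 0.51), named after its value was seen, which is also known from the distal convoluted tubule. Of 10 endothelial genes 0 were called by edgeR, DESeq2 or limma-voom, and 0 had an unadjusted p under 0.05. Of 10 hepatocyte genes 9 were above 0, 2 were called higher and 1 lower, at a median log2 fold change of 0.86, with WD replicate 5 the highest library as given above. Without that library *Spred2* and *Etv5* were still called. Of 12 immediate early genes, which respond to ERK within minutes and also to handling of tissue, 11 were above 0, at a median log2 fold change of 0.26. Of these 12 genes edgeR, DESeq2 and limma-voom called 0, and 0 had an unadjusted p under 0.05 in edgeR. In WD+CHP vs. WD edgeR and limma-voom called 0 genes of these lists in kidney, and DESeq2 called 2 proximal tubule genes higher. In that comparison 11.4% of all kidney genes had an unadjusted p under 0.05 in edgeR. From the lists, 6 of the 10 hepatocyte genes had one (median log2 fold change -1.45), 4 of the 12 proximal tubule genes (0.02), 2 of the 10 endothelial genes (-0.10, all 10 below 0), 1 of the 8 adipocyte genes (0.28) and 0 of the 12 immediate early genes (-0.07). None of the other lists had a gene at 0. In whole tissue, fewer cells of a type and less RNA per cell cannot be told apart, and the part of these markers in the fall of *Spred2* and *Etv5* was not tested.

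In gastrocnemius, *Dusp4* and *Spry1* were lower in WD than in CD, with adjusted p-values near the threshold. Of 10 members 2 were called, both lower, against 8.63% of 15419 genes in either direction, 3.96% lower and 4.67% higher (edgeR, adjusted p under 0.05). As in kidney, the count is near the background. With an unadjusted p under 0.05 there were 5 members, adding *Etv5*, *Spred2* and *Spry4*, where 23.7% of all genes had one. The members' median log2 fold change was -0.05.

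*Dusp4* (ENSMUSG00000031530; GRCm38 chr8:34807297-34819894, plus strand) was at 2.57, 2.33, 2.32, 2.22 and 2.79 CPM in the CD muscles. The WD libraries were at 2.10, 1.48, 2.19, 1.64 and 1.72 CPM, and the WD+CHP libraries at 1.64, 1.93, 1.74, 2.24 and 2.25. All WD libraries were below all CD libraries, by a narrow gap, and 3 WD+CHP libraries were. *Dusp4* fell by 25.2% (log2 fold change -0.42, standard error 0.13, 95% interval -0.69 to -0.15, edgeR adjusted p = 0.0475, n = 5 per group), on 79 to 145 counts per library. Leaving out single libraries lost the call in 8 of 10 fits, namely without any 1 of the 5 CD libraries or without WD replicate 2, 4 or 5 (edgeR adjusted p = 0.0579 to 0.113), and it held without WD replicate 1 or 3.

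*Spry1* (ENSMUSG00000037211; chr3:37639947-37644598, plus strand), the leading member in muscle, was at 22.4, 23.8, 21.9, 23.1 and 23.3 CPM in CD. The WD libraries were at 20.02, 20.08, 19.97, 20.8 and 20.7 CPM, all below the CD range, and the WD+CHP libraries at 21.2, 19.1, 20.4, 23.5 and 22.4, which spread over both ranges. *Spry1* fell by 11.3% (log2 fold change -0.17, standard error 0.051, 95% interval -0.28 to -0.06, edgeR adjusted p = 0.0455, n = 5 per group). Its biological coefficient of variation, 6.20%, was above that of only 9.22% of muscle genes. The call was lost in 10 of 10 fits without 1 library (edgeR adjusted p = 0.0513 to 0.0960), with differences of -0.19 to -0.16. With libraries scaled by total count, *Spry1* was at -0.10 and *Dusp4* at -0.35 (edgeR adjusted p = 0.200 and 0.0878), and the split over all genes moved from 720 higher and 610 lower to 1506 and 346. In muscle 2 of 10 members, the same pair, had WD libraries that did not overlap CD, where 7.84% of all genes did not, and 0 of 10 had WD+CHP libraries that did not overlap CD, where 8.75% did not.

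*Etv5* and *Spred2*, the pair lowered in kidney, did not pass in muscle. *Etv5* was at 13.4, 12.8, 16.2, 12.4 and 17.8 CPM in CD and at 12.0, 11.7, 12.6, 11.3 and 12.2 in WD. Of the WD libraries 4 lay below all CD libraries (log2 fold change -0.28, edgeR adjusted p = 0.0958 with a standard error of 0.10). *Spred2* was at 9.23, 10.5, 9.64, 10.2 and 10.4 CPM in CD and at 9.57, 8.43, 9.16, 8.25 and 9.28 in WD, with 3 WD libraries below the CD range (log2 fold change -0.16, edgeR adjusted p = 0.147 with a standard error of 0.066). *Spry4*, a Sprouty that binds RAF, had the largest positive difference, with 5.69, 5.35, 3.58, 5.54 and 4.38 CPM in CD and 6.69, 5.30, 7.35, 5.58 and 7.06 in WD. The groups overlapped (log2 fold change 0.38, edgeR adjusted p = 0.163 with a standard error of 0.16). *Dusp6* was at 12.0 ± 1.93 and 9.94 ± 1.18 CPM (SD, n = 5 each; log2 fold change -0.28, edgeR adjusted p = 0.256). *Spred1* was at 8.58 ± 1.01 and 9.57 ± 0.823 CPM (0.16, edgeR adjusted p = 0.232), and *Spry2* at 10.8 ± 1.18 and 11.2 ± 0.945 (0.05, edgeR adjusted p = 0.744). *Etv4* (57 to 119 counts per library over the 3 groups) and *Dusp5* (17 to 48) had few counts and wide 95% intervals, of -0.18 to 0.49 and -0.34 to 0.70.

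**Figure D3:**
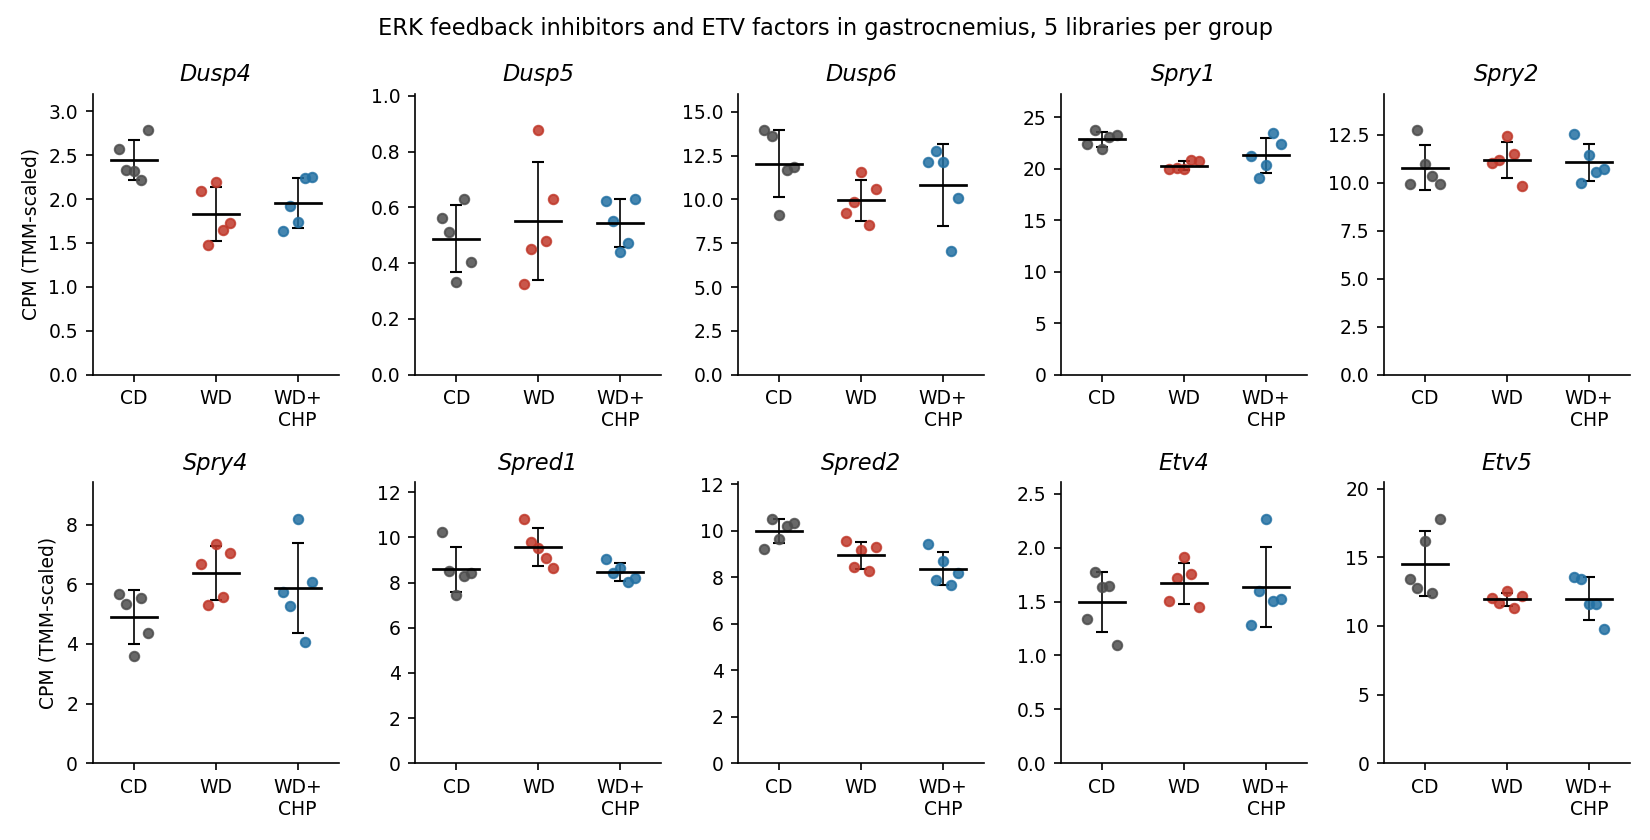
Gastrocnemius CPM (TMM-scaled) of each gene by group; points are the 5 libraries in replicate order, bars are means and error bars SD, and each axis starts at 0. *Spry1* lies at 19.97 to 20.8 in WD and at 21.9 to 23.8 in CD, and the WD+CHP libraries reach from 19.1 to 23.5.

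No member passed the test for CHP in gastrocnemius either. Of 10 members 0 were called, against 0.409% of all genes, 1 had an unadjusted p under 0.05 in edgeR, where 12.5% of all genes had one, and DESeq2 and limma-voom called 0. The 1 member was *Spred1*, at 10.8, 9.78, 9.52, 9.08 and 8.65 CPM in WD and at 9.03, 8.43, 8.63, 8.02 and 8.19 in WD+CHP. Of the WD+CHP libraries 4 lay below all WD libraries (log2 fold change -0.18, standard error 0.078, 95% interval -0.34 to -0.01, unadjusted p = 0.0362, edgeR adjusted p = 0.357). *Dusp4* and *Spry1*, the pair called in WD vs. CD, were 7.13% and 4.96% higher than in WD, with 95% intervals of -11.1% to 29.1% and -2.61% to 13.1% (edgeR adjusted p = 0.805 and 0.619). *Dusp6* was at 12.1, 12.7, 12.1, 7.04 and 10.1 CPM in WD+CHP, of which 3 libraries lay above all WD libraries and 1 below (log2 fold change 0.12, edgeR adjusted p = 0.784). The same library, replicate 4, had the lowest *Spry4* and the highest *Spry1* of its group. The *Etv5* means were close, at 11.9 ± 0.470 and 12.0 ± 1.57 CPM (SD, n = 5 each; log2 fold change 0.00, 95% interval -0.21 to 0.22).

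Fat and fibre markers were also summed in muscle. The sum over 10 adipocyte genes was 1624 to 1987 CPM in CD, 1694 to 2160 in WD and 1499 to 1884 in WD+CHP. Of these genes, 4 were called higher and 1 lower in WD vs. CD (median log2 fold change 0.36), and 4 lower in WD+CHP vs. WD (median -0.58). The sum over 12 fast fibre genes was 220731 to 261227 CPM in CD and 195686 to 226496 in WD, with 2 genes called lower, and it was 201843 to 234934 in WD+CHP. No gene of either list was at 0, and the part of these markers in the differences of *Dusp4* and *Spry1* was not tested. The 7 hepatocyte genes tested had a median log2 fold change of -3.46 in WD+CHP vs. WD, with 0 called by edgeR or limma-voom, 1 by DESeq2 and 6 at an unadjusted p under 0.05 in edgeR. No member was called in that comparison in any of the 10 fits without 1 library. Of 13 immediate early genes, 10 were above 0 in WD vs. CD at a median log2 fold change of 0.28, with 4 at an unadjusted p under 0.05 and *Atf3* called higher. In WD+CHP vs. WD, edgeR, DESeq2 and limma-voom called 0 of them, with 0 at an unadjusted p under 0.05 in edgeR. Of 10 endothelial genes edgeR and limma-voom called 0 in WD vs. CD, with 1 at an unadjusted p under 0.05, and DESeq2 called 1.

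**Figure D4:**
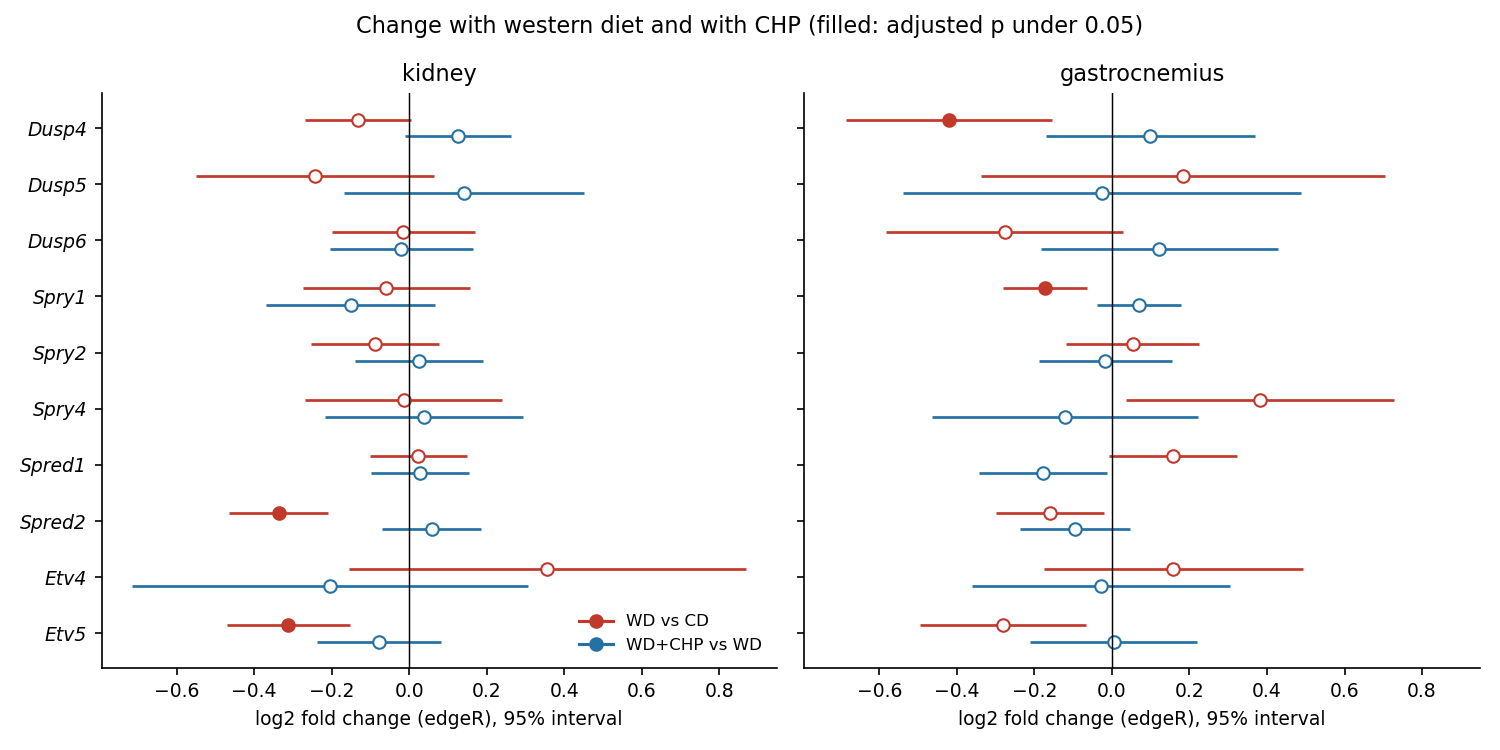
Log2 fold change of each gene (edgeR) in kidney and gastrocnemius, with 95% intervals; red is WD vs. CD, blue is WD+CHP vs. WD, and filled points have an adjusted p under 0.05. The 4 filled points, kidney *Spred2* and *Etv5* and gastrocnemius *Dusp4* and *Spry1*, are all below 0 and belong to WD vs. CD.

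The tissues were compared in a joint fit of the 30 libraries, with the difference between the kidney and the gastrocnemius fold change as the tested term. For WD vs. CD, 0 of 10 members were called, against 6.06% of 13934 genes. Only *Dusp4* had an unadjusted p under 0.05 (edgeR), and limma-voom called 0. The differences ran from -0.42 to 0.29 on the log2 scale (kidney minus gastrocnemius). For WD+CHP vs. WD, 0 members were called, against 0.66% of all genes, 0 had an unadjusted p under 0.05 in edgeR, limma-voom called 0, and the differences ran from -0.23 to 0.19. Therefore none of the 4 calls above was shown to differ between kidney and muscle. If the same mice gave both tissues, this fit treats their libraries as independent.

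The other genes of the pathway were counted by role. In kidney, WD vs. CD called 2 of 15 tested ligands lower and 0 higher, 5 of 15 receptors lower and 0 higher, 1 of 22 core cascade genes lower, 2 of 14 other brakes higher and 1 of 13 other targets higher (edgeR, adjusted p under 0.05), where 5.03% of all genes were called lower and 4.62% higher. In the fits without 1 library, 2 to 4 of the 5 receptors and 0 to 1 of the 2 ligands stayed called, and without CD replicate 1 it was 2 and 0. *Igf1r* and *Braf* held in 5 of 10 such fits, *Insr* in 2, and *Fgfr1* and *Fgf9* in 1 each. The median log2 fold change was 0.07 for the ligands, -0.12 for the receptors, -0.01 for the core cascade, 0.07 for the other brakes and -0.02 for the other targets. Of the receptors the largest fall was that of *Erbb3*, the kinase-impaired partner of ERBB2, from 144 ± 7.02 to 91.2 ± 6.51 CPM (SD, n = 5 each; log2 fold change -0.65, standard error 0.050). *Erbb2* itself went from 78.0 ± 5.56 to 56.2 ± 3.09 CPM (-0.47, standard error 0.071), and both held in 10 of 10 fits without 1 library. The largest rise was that of *Ccnd1*, the cyclin that ERK signalling induces in early G1, from 56.3 ± 1.09 to 166 ± 27.0 CPM (1.56, standard error 0.16), and *Dusp2*, a nuclear phosphatase of ERK, rose from 0.357 ± 0.0468 to 0.630 ± 0.133 CPM (0.81, standard error 0.19). Both held in 10 of 10 such fits. *Errfi1*, an inhibitor of EGF receptors, rose by 0.29 and *Fgf1*, an FGF ligand, fell by 0.27, but these calls held in only 4 and 2 of 10 fits, respectively.

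In gastrocnemius, WD vs. CD called 2 of 13 ligands higher and 1 lower, 1 of 16 receptors higher and 1 lower, 1 of 22 core cascade genes higher and 2 lower, 0 of 12 other brakes and 1 of 12 other targets lower, where 4.67% of all genes were called higher and 3.96% lower. The 12 other brakes had a median log2 fold change of 0.21, with 8 above 0 and 4 below. Of the 12, 6 had an unadjusted p under 0.05 in edgeR, where 23.7% of all genes had one, and DESeq2 and limma-voom called 0. The medians were 0.16 for the ligands, -0.07 for the receptors, -0.03 for the core cascade and 0.01 for the other targets. Among the called genes, the largest rises were those of *Fgfr3*, an FGF receptor, from 4.88 ± 0.294 to 8.93 ± 0.919 CPM (SD, n = 5 each; 0.87, standard error 0.097), *Fgf1* from 23.8 ± 4.12 to 35.6 ± 2.59 CPM (0.58, standard error 0.11) and *Fgf7* from 3.01 ± 0.427 to 4.29 ± 0.327 CPM (0.51, standard error 0.12). All 3 held in 10 of 10 fits without 1 library. The largest rise among the other brakes, 0.63, was not called. The largest called falls were those of *Kl*, the co-receptor of FGF23, from 0.847 ± 0.202 to 0.348 ± 0.111 CPM (-1.28, standard error 0.27, held in 10 of 10), of *Myc* (-0.64, held in 4 of 10) and of *Igf1* (-0.62, held in 5 of 10). In WD+CHP vs. WD, edgeR called 0 of these pathway genes in either tissue, with 11 of 79 at an unadjusted p under 0.05 in kidney and 11 of 75 in gastrocnemius, where 11.4% and 12.5% of all genes had one. DESeq2 called 1 in each tissue, a core cascade gene higher in kidney and 1 of the other brakes lower in gastrocnemius, and limma-voom called 0.

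Within groups the members showed no relation that passed the test. Over 15 libraries per tissue, with each group centred on its mean, 90 pairs were examined, 45 per tissue. In kidney 34 pairs had a positive Pearson r and 11 a negative one, with a median of 0.17, and in gastrocnemius 26 and 19, with a median of 0.07. No pair had an adjusted p under 0.05 (100000 permutations within groups, Benjamini-Hochberg over 90 pairs), and an unadjusted permutation p under 0.05 was found for 4 pairs by Pearson's r and 6 by Spearman's rho. The highest r in both tissues was that of *Dusp6* with *Spry4*. It was 0.74 in gastrocnemius (Spearman's rho 0.60, permutation p = 0.00924 and 0.0321, adjusted p = 0.697 and 0.527) and 0.64 in kidney (rho 0.61, permutation p = 0.0651 and 0.0604, adjusted p = 0.697 and 0.527). Without the 2 libraries farthest in *Dusp6*, r was 0.43 and 0.40, respectively, so both values rest in part on those libraries. *Dusp6* with *Spred1* had an unadjusted Spearman permutation p under 0.05 in both tissues. In kidney r was 0.60 (rho 0.68, permutation p = 0.0452 and 0.0269), and 0.77 without those libraries. In gastrocnemius r was 0.47 (rho 0.60, permutation p = 0.0624 and 0.0256), and 0.24 without them. The adjusted permutation p was 0.697 and 0.527 in each tissue. *Spred2* and *Etv5*, the pair lowered by the diet in kidney, had r = 0.50 within groups there (rho 0.62, permutation p = 0.0571 and 0.0208, adjusted p = 0.697 and 0.527), and 0.45 without the 2 farthest libraries. The genes outside the 10 whose pattern was most like *Dusp6*, over 15 libraries, were *Zfp709* (r = 0.88), *Aggf1* (0.87) and *Ddx21* (0.86) among 12398 kidney genes, and *Csf1* (0.88), *Cyp51* (0.88) and *Chst11* (0.88) among 10810 gastrocnemius genes. These are the top of many values and carry no test.

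**Figure D5:**
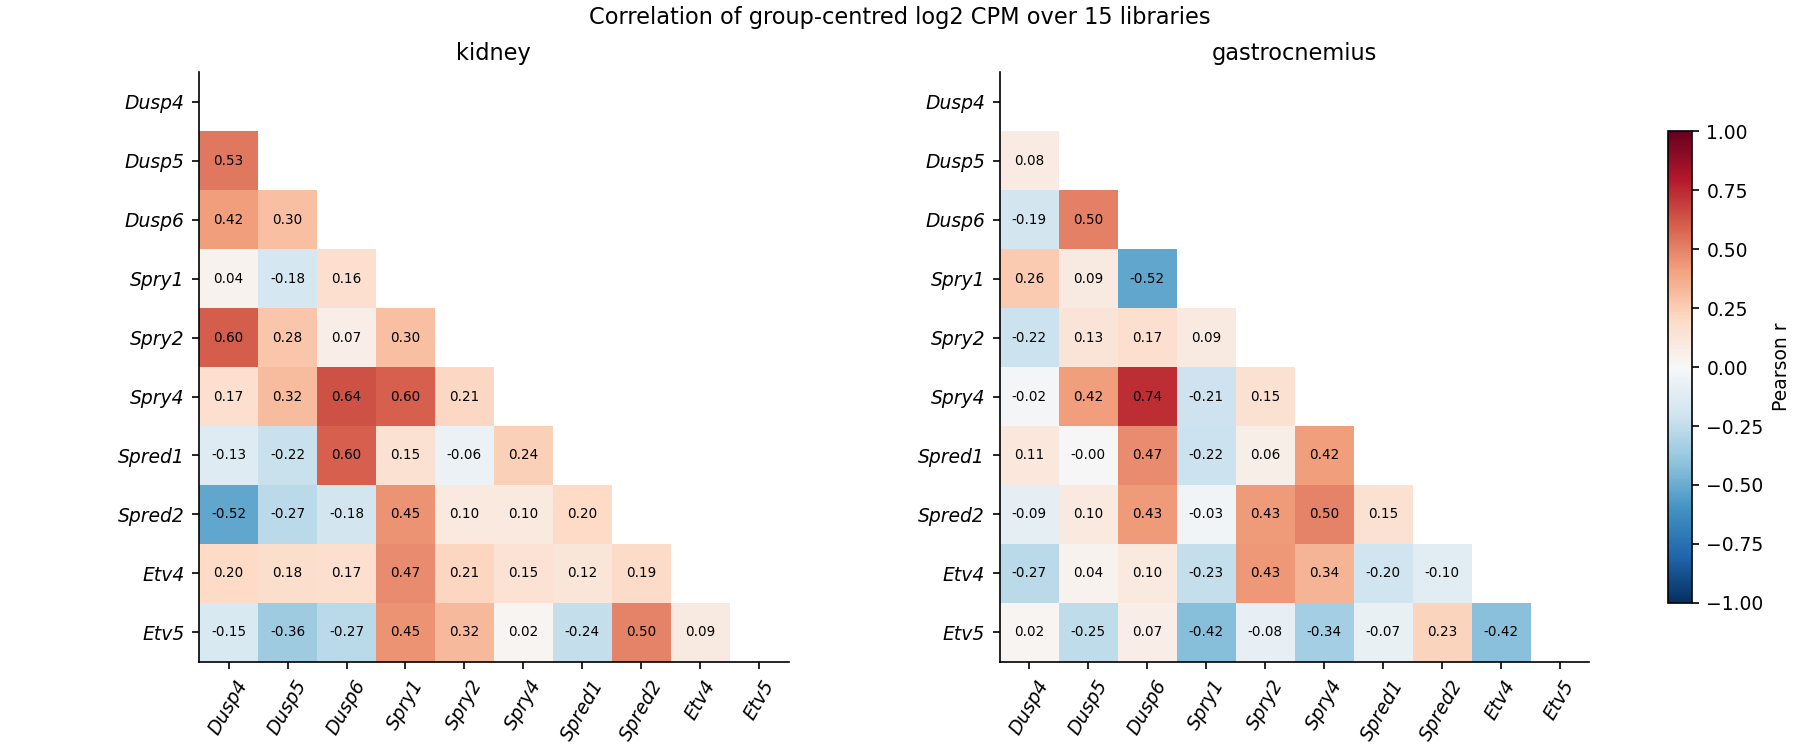
Pearson r of group-centred log2 CPM for each pair of genes over 15 libraries per tissue; red is positive and blue negative. *Dusp6* with *Spry4* is the highest pair in both panels, at 0.64 in kidney and 0.74 in gastrocnemius, and no pair passed the adjusted test.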

How the data were processed

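RNA-seq libraries of kidney and gastrocnemius were prepared with poly(A) enrichment for BGISEQ-500. Per the labels, reads were aligned with STAR 2.7.3a to GRCm38. The authors deposited raw counts per gene, 1 table per tissue, and the strand setting is not given in the sources used here. The labels name liver as starting material, and different RNA kits for the tissues, where the methods name kidney and gastrocnemius and 1 kit. All 30 columns matched a sample. Groups are those of the labels. Dose, schedule and housing are from the study's methods. The members and lists were chosen with earlier results of these data known.

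Genes were kept with filterByExpr (minimum count 10) and scaled by TMM. The 3 groups of a tissue were fitted together with edgeR 4.0.16 quasi-likelihood F tests (limma 3.58.1, R 4.3.3), adjusted by Benjamini-Hochberg over all genes tested, with a threshold of 0.05. A joint fit of both tissues tested the difference between them. CPM are TMM-scaled. RPKM used the union of exons of the GENCODE M21 models, which also gave coordinates (GRCm38). Correlations used log2 CPM with a prior count of 2, centred by group. p-values measure the spread between libraries, 1 per mouse. edgeR's common dispersion amounted to a coefficient of variation of 9.62% for kidney and 11.6% for gastrocnemius.

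Genes were named if they were members, or the up to 3 largest called rises and falls of the pathway lists. Other called kidney pathway genes were named for how often their calls held without 1 library. *Pvalb* and *Atf3* were named as called genes of their lists, and 3 genes per tissue for their likeness to *Dusp6*. Overlapping transcripts had few counts: at most 30 for *Gm42922*, on the strand opposite *Spry1*, and at most 2 for the others, so reads of *Spry1* could not be told from it by strand. The test was checked on simulated data: of 100 genes changed by 0.5 on the log2 scale, 62% were recovered in kidney and 42% in gastrocnemius, and 79% and 74% of those changed by 1. Far fewer genes were changed there than were called in WD vs. CD, and they were drawn from all count levels. These rates therefore do not give the power of the test for the members. Alternatives were DESeq2 1.42.0, limma-voom, DESeq2 size factors, total counts, no filter, a replicate block, only the 2 groups compared, and each library left out. A length and GC correction, with and without the block, was added after the data were seen.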

Additional observations from a re-analysis of the deposited data

Results flagged for a closer look

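A search of 60 groups, 10 genes by 3 groups by 2 tissues, found 2 groups of 5 libraries in which 1 library stood far from the other 4, where chance gives about 1 in 20 groups. In kidney, *Dusp5* of CD replicate 2 was at 1.87 CPM, with the other 4 at 2.32 to 2.38 CPM. *Etv5* of kidney WD replicate 4 was at 31.5 CPM, with the other 4 at 22.3 to 25.0 CPM. Without that library *Etv5* was lower in WD than in CD by a log2 fold change of -0.40 (edgeR adjusted p = 0.000553), against -0.31 with all 5.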

How the results depend on the processing

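*Spred2* and *Etv5* in kidney WD vs. CD were called in all 9 other settings and in all 10 fits without 1 library, with an adjusted p of at most 0.00935 for *Spred2* and 0.0451 for *Etv5* (edgeR, DESeq2 or limma-voom). In gastrocnemius WD vs. CD, 2 members were called, against 0 with total counts, 0 without a filter, 0 with the replicate block and 1 with only the 2 groups compared, and 0 to 1 without single libraries. *Dusp4* was at adjusted p = 0.0878, 0.0715, 0.0793 and 0.0654 in those 4 settings and *Spry1* at 0.200, 0.0964, 0.0593 and 0.0321 (edgeR). The cause was not tested.

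Counts over all genes depended on the setting mainly for WD+CHP vs. WD, where the number of members called stayed at 0. For WD vs. CD the kidney count was 1652, against 1142 to 1744 without single libraries and 1354 to 2029 in other settings. The gastrocnemius count was 1330, against 965 to 1421 and 994 to 1852, respectively. In kidney WD+CHP vs. WD 18 genes were called, against 168 with DESeq2, 37 without a filter, 70 with the block, 6 with the length and GC correction, 0 with only the 2 groups and 0 to 97 without single libraries. In gastrocnemius it was 63, against 249 with DESeq2, 40 without a filter and 12 to 92 without single libraries. For the tissue difference under CHP it was 92, against 55 with limma-voom, 50 without a filter and 31 to 173 without single libraries. Total counts gave 0 higher and 54 lower genes in gastrocnemius WD+CHP vs. WD, against 10 and 53, and moved the tissue difference in WD vs. CD to 248 higher and 974 lower, against 388 and 456, and under CHP to 111 and 12, against 71 and 21.

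Differences near 0 turned sign. In kidney WD+CHP vs. WD, *Spry2* was at -0.0072 and *Spred1* at -0.0061 with total counts, and *Spred1* at -0.024 with the length and GC correction, with or without the block. In kidney WD vs. CD *Dusp6* was at 0.0010 with both. In gastrocnemius WD+CHP vs. WD *Dusp5* was at 0.038 and *Etv5* at -0.0053 with limma-voom, *Etv5* at -0.040 with total counts, and *Spry2* at 0.021 with the length and GC correction and 0.025 with the block added. Without single libraries, the ranges that crossed 0 were -0.045 to 0.026 for *Dusp6*, -0.0022 to 0.064 for *Spred1* and -0.055 to 0.058 for *Spry4* in kidney WD vs. CD, and -0.047 to 0.32 for *Dusp5* in gastrocnemius WD vs. CD. In kidney WD+CHP vs. WD they were -0.096 to 0.046 for *Dusp6*, -0.12 to 0.019 for *Etv5*, -0.011 to 0.061 for *Spred1*, -0.015 to 0.073 for *Spry2* and -0.058 to 0.13 for *Spry4*. In gastrocnemius WD+CHP vs. WD they were -0.17 to 0.20 for *Dusp5*, -0.17 to 0.047 for *Etv4*, -0.045 to 0.070 for *Etv5* and -0.066 to 0.024 for *Spry2*.

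No clear pairing of libraries by replicate number was seen: the correlation of same-numbered deviations was -0.091 to 0.144 (kidney) and -0.126 to 0.053 (gastrocnemius) between CD and WD, and -0.035 to 0.087 and -0.083 to 0.146 between WD and WD+CHP. Of 5 libraries in each tissue, 1 matched its own number best in WD vs. CD, and 2 did in WD+CHP vs. WD. A shared batch was not tested. *Etv4* and *Dusp5* had the fewest counts, 17 to 119 per library.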
